A study of Brachypodium distachyon with 35 samples.

Results

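The genes described here are 33 of the 96 BdbZIP genes of the grass Brachypodium distachyon, chosen by the arrangement of introns in the bZIP domain. The study's gene list gives intron pattern b, c, d or e to 43 genes, and 10 of them were set aside by name with earlier results of these data known. The rest are 20 genes with pattern b, 2 with pattern c, 3 with pattern d and 8 with pattern e. They were sorted by their listed homologues into TGA type (8 genes, pattern e), ABA-related type (8 genes), G-box type (4 genes) and other pattern b (8 genes), with patterns c and d kept apart.

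bZIP transcription factors bind DNA through a basic region, and a leucine zipper joins the proteins into dimers. A hinge lies between these regions, and the patterns record where introns interrupt the basic region or the hinge. In Arabidopsis, TGA factors work with NPR1 in salicylic acid signalling, and ABI5, ABF and AREB factors act on the response elements of abscisic acid (ABA). G-box factors bind promoter elements with an ACGT core, which are found in many light- and stress-regulated genes.

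Real-time quantitative PCR (qPCR) measured the transcripts in 35 samples, 1 for each condition. Seedlings met 5 environmental factors for 1 h and 6 h, namely 10 mM H2O2, 200 mM NaCl, 20% PEG (which causes osmotic stress), cold at 4 °C and heat at 45 °C. They met 5 heavy metals for 6 h and 24 h as CdCl2 (0.07 mM), PbCl2 (0.75 mM), CuSO4 (0.05 mM), MnCl2 (1.0 mM) and ZnSO4 (0.5 mM), and the phytohormones were 1 mM salicylic acid (SA), 20 µM of the cytokinin 6-BA, 100 µM ABA and 100 µM methyl jasmonate (MeJA), for 1 h and 6 h. Untreated seedlings (CK1, CK2 and CK3), treated seedlings, root, stem and leaf were 20 days old and the spikelet 40 days by the labels. CK1 is the labelled control of the environmental factors, SA, 6-BA and the organs, CK2 that of ABA and MeJA, and CK3 that of the metals and of NaCl 6 h. With 1 sample per condition, no difference between a pair of samples has a replicate check.

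Values are given as log2 change, –ΔΔCT, against the reference gene BdGAPD and the labelled control, where 1 stands for a 2-fold rise. The fold changes the authors deposited for 16 of the samples other than the metals run in the opposite direction, as treated minus control Ct in 90 to 94 of 96 wells. Ct, the PCR cycle at which product is detected, ran from 17.92 to 39.44 in these genes, and 13 of the 33 reached 35 or later in at least 1 sample, against 34 of all 96. From 8 pairs of genes with identical primers, the error of the wells in a log2 change had an SD of 0.97. The Ct of BdGAPD ran from 14.73 to 23.24, and relative to it the 33 genes stood higher in CK3, by a median of 2.75 log2 units over CK1 and 3.16 over CK2. PEG 1 h was left out, since its column of Ct values was the same as that of H2O2 6 h. NaCl 6 h has CK3 in the labels, but the fold changes the authors deposited for it follow CK1 in 92 of 96 wells. Its median, and its value where it ends a range of a gene, are therefore given against both. Class means and counts use CK3 unless CK1 is named.

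In most samples the genes moved little as a group, and their median followed that of the whole family. The median log2 change of the 33 genes, from each gene's mean over a class, was -0.90 for heavy metals, -0.19 for environmental factors and 0.16 for phytohormones, against -0.90, -0.20 and 0.20 for all 96 genes. These directions depend on the control and the reference, since against the mean of the 3 controls the metal median was 1.02 and the hormone median -0.68, and without BdGAPD the environmental median was 0.73 and the hormone median -0.67. Under environmental factors, 2 genes had a mean at least 2-fold higher (9.38% of all genes did) and 7 a mean at most 0.5-fold (30.2% of all genes). Under heavy metals, 1 gene was higher (8.33% of all genes) and 15 were lower (44.8% of all genes), and under phytohormones 4 were higher (15.6% of all genes) and 0 lower (7.29% of all genes). The shares of the 33 genes lay near these backgrounds or below them.

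**Figure D1:**
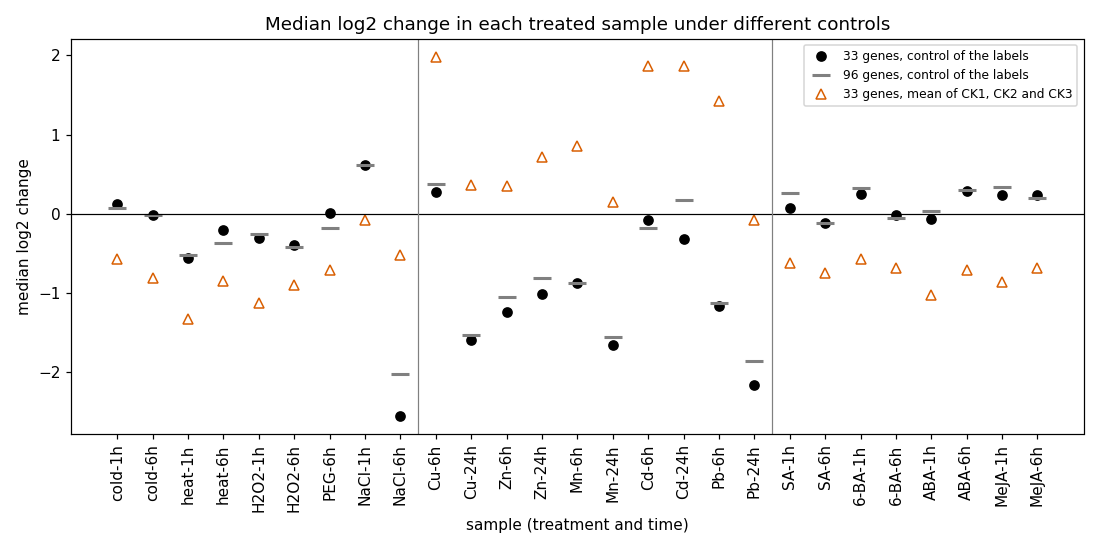
Median log2 change (y axis) in each of the 27 treated samples (x axis), for the 33 genes (black points) and all 96 genes (grey bars) against the labelled control, and for the 33 genes against the mean of the 3 controls (open triangles). The metal samples fall from 0.27 to -2.16 under their own control, and NaCl 6 h stands at -2.55.

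The low end of the environmental class was 1 sample. After NaCl 6 h, 28 of the 33 genes were at most 0.5-fold against CK3 (71.9% of all genes) and their median was -2.55. Against CK1, 2 were (16.7% of all genes), and the median was 0.44. The medians of the other 8 environmental samples lay between -0.56 (heat 1 h) and 0.62 (NaCl 1 h). With NaCl 6 h set against CK1, the median of the class was -0.03, and 5 genes had a class mean at least 2-fold higher (16.7% of all genes) and 3 at most 0.5-fold (20.8% of all genes). The higher genes were BdbZIP50, BdbZIP24, BdbZIP6, BdbZIP68 and BdbZIP93, and the lower ones BdbZIP18, BdbZIP95 and BdbZIP34.

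**Figure D2:**
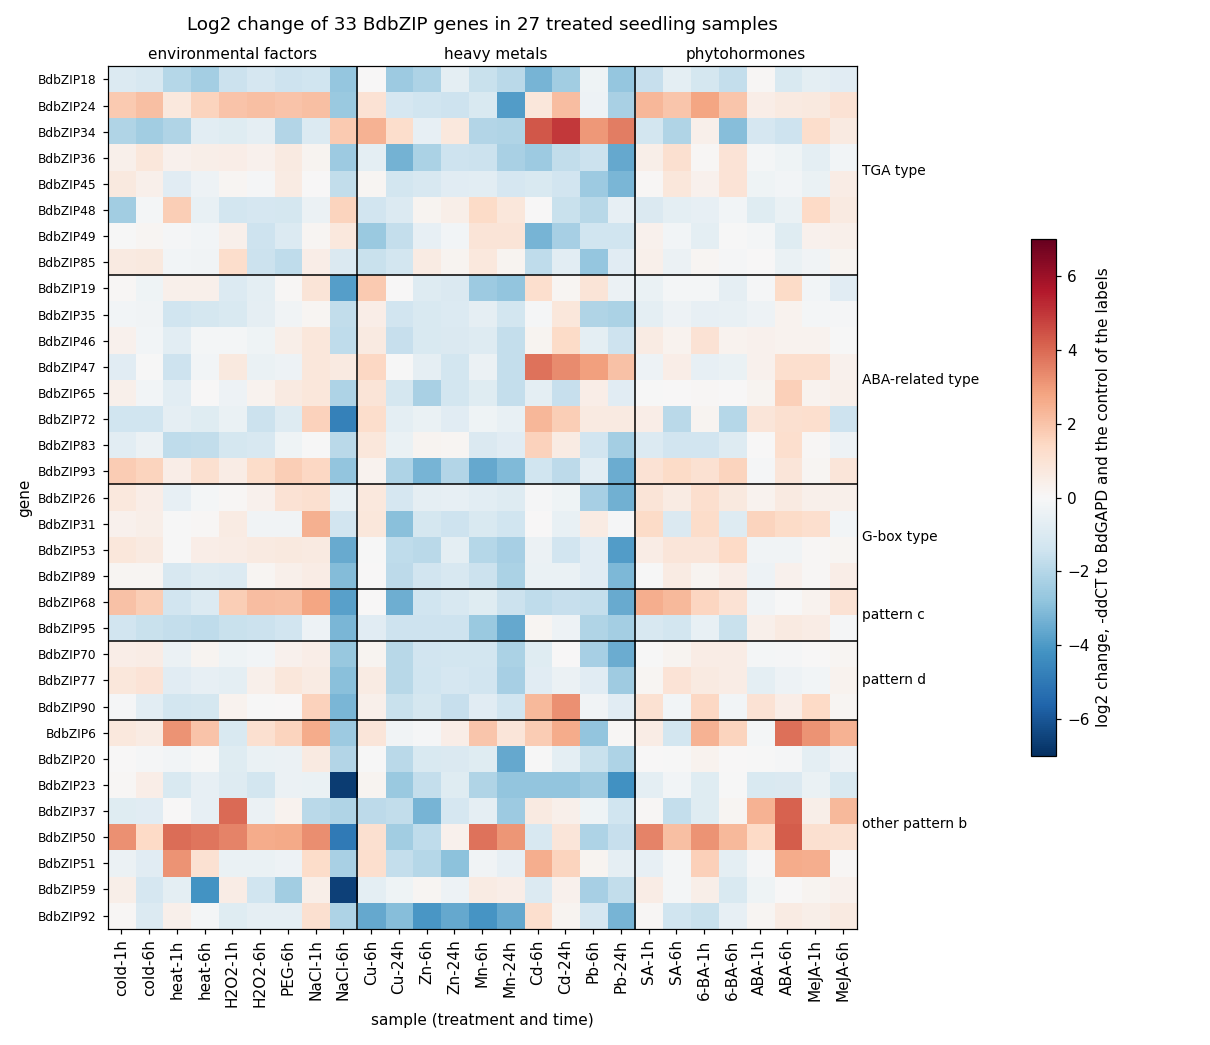
Log2 change (colour) of the 33 genes (rows, grouped by list) in 27 treated seedling samples (columns). Rows of a steady colour are few: BdbZIP50 and BdbZIP24 are red in most environmental and hormone samples, and BdbZIP18 and BdbZIP95 are blue in most environmental and metal samples.

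Of the 8 TGA-type genes, BdbZIP24 was mostly higher and BdbZIP18 mostly lower outside the metals, while BdbZIP34 and BdbZIP36 had the highest and the lowest metal means. BdbZIP24 (bradi1g64060), whose rice homologue is annotated as HBP-1b, a DNA-binding protein first described at wheat histone promoters, had log2 changes from -2.59 (NaCl 6 h against CK3, 2.11 against CK1) to 2.12 (H2O2 6 h) under environmental factors, with a median of 1.99. In 7 of the 9 it was at least 2-fold higher, mean 1.32 ± 1.53 (SD), and with NaCl 6 h against CK1 in 8. Under phytohormones it ran from 0.45 (ABA 1 h) through a median of 1.48 to 2.77 (6-BA 1 h), and all 8 values were above 0. Its values for SA were 2.34 at 1 h and 1.94 at 6 h. Its level relative to BdGAPD was lower in CK1 than in either other control, and against the mean of all 3 controls its environmental mean was -0.22 and its hormone mean 0.15.

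BdbZIP18 (bradi1g43900) was below its control in all 9 environmental samples, from -2.70 (NaCl 6 h against CK3, -2.31 against CK1) through a median of -1.44 to -0.95 (cold 1 h), mean -1.63 ± 0.60 (SD). Under metals its lowest value was -3.23 (Cd 6 h), its median -2.03 and its highest 0.00 (Cu 6 h), and under hormones it ran from -1.66 through -0.93 to 0.08. It was the lowest of the 33 genes under hormones, with a mean of -0.96 ± 0.57 (SD). Its environmental mean stayed below 0 with the mean of the controls (-1.27) and without the reference gene (-0.71).

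BdbZIP34 (bradi2g21380) had the highest metal mean, 1.56 ± 2.54 (SD), but the metals were split. It had log2 changes of 4.37 and 4.94 under Cd and 3.03 and 3.57 under Pb, against -2.07 and -2.11 under Mn, in the order of 6 h and 24 h. Its Ct in CK3 was 36.28, against 31.66 in CK1 and 31.05 in CK2, so these values are measured from a late well. Its Ct was 35.07 and 33.30 under Cd and 36.06 and 33.33 under Pb. The Ct of BdGAPD was 23.24 and 22.04 under Cd and 22.89 and 20.70 under Pb, against 20.08 in CK3. With the controls averaged, the metal mean of BdbZIP34 was 0.46. Outside the metals it lay below 0 in 13 of 17 samples, with an environmental mean of -1.11 ± 1.31 and a hormone mean of -0.84 ± 1.45 (SD). Its NaCl 6 h value was 1.85 against CK3 and -0.59 against CK1.

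BdbZIP36 (bradi2g23890) was the reverse, and was at most 0.5-fold in 9 of the 10 metal samples. Its metal values ran from -3.60 (Pb 24 h) through a median of -1.99 to -0.67 (Cu 6 h), mean -2.09 ± 0.90 (SD). The other 17 samples ran from -2.55 (NaCl 6 h against CK3) to 1.12 (SA 6 h), and NaCl 6 h was at 1.38 against CK1. Relative to BdGAPD, BdbZIP36 stood at -4.36 in CK3, against -8.29 in CK1 and -8.05 in CK2. Its metal samples lay between these controls, at -7.96 to -5.03, so its low metal values depend on CK3. BdbZIP45 had metal means of -1.32 ± 0.94, BdbZIP85 of -0.72 ± 1.13, and neither mean passed 2-fold in another class. After SA, which acts through TGA factors in Arabidopsis, 1 of the 8 genes was at least 2-fold higher at 1 h (22.9% of all genes) and 2 at 6 h (17.7% of all genes), namely BdbZIP24 at both times and BdbZIP36 at 6 h.

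BdbZIP48 and BdbZIP49 have identical primers, so their values do not tell the genes apart. Their log2 changes differed by a median of 0.62 and by at most 3.25, and in the 4 organs by 0.04 to 0.32. Environmental means were -0.45 ± 1.36 and -0.15 ± 0.67 (SD), and metal means -0.36 ± 1.09 and -1.15 ± 1.41 in that order. The wells disagreed most at Cd 6 h, 0.01 against -3.24, and at cold 1 h, -2.45 against -0.03.

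**Figure D3:**
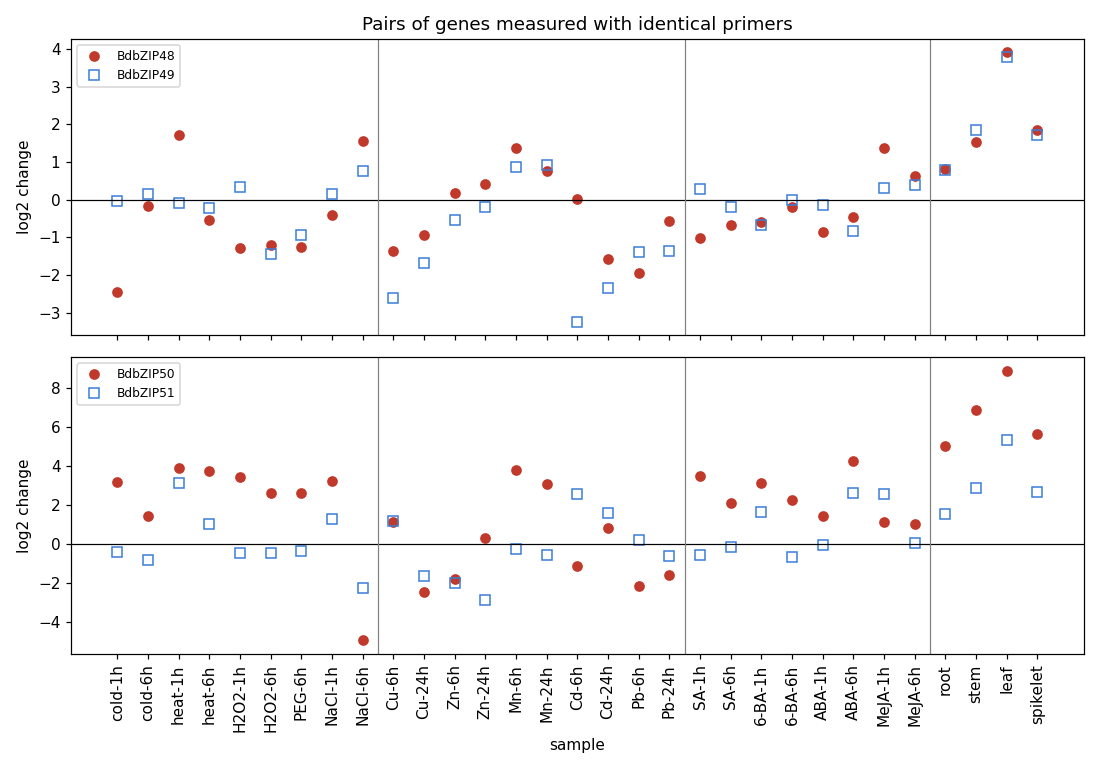
Log2 change (y axis) in 27 treated samples and 4 organs (x axis) for both same-primer pairs among the 33 genes. BdbZIP48 and BdbZIP49 lie close together in the organs, whereas BdbZIP50 lies above BdbZIP51 in all environmental samples except NaCl 6 h and in every organ.

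The 8 ABA-related genes have homologues annotated as ABI5 (BdbZIP19 and BdbZIP47), AREB3 (BdbZIP46) or EEL (BdbZIP35), or rice homologues of the same kind. After 6 h of ABA, 5 of the 8 were at least 2-fold higher (24% of all genes) and 0 at most 0.5-fold, with a median of 1.14 against 0.31 for all genes. BdbZIP65 stood at 1.68, BdbZIP19 at 1.35, BdbZIP47 at 1.18, BdbZIP83 at 1.16 and BdbZIP72 at 1.12, while BdbZIP93 had 0.86, BdbZIP46 0.27 and BdbZIP35 0.23. After 1 h of ABA, 0 of the 8 passed 2-fold (8.33% of all genes), and their values lay between -0.38 and 0.85. Each ABA time is 1 sample against 1 control, and the 5 genes exceed 2-fold by less than the SD of the wells. The rise at ABA 6 h was not confined to this list. Other pattern b had a higher median there, 1.59, with 4 of its 8 genes past 2-fold and 1 at most 0.5-fold. These 4 include the same-primer genes BdbZIP50 and BdbZIP51. The remaining lists had medians of -0.455 to 0.45. At ABA 6 h the Ct was late in BdbZIP47 (36.08) and, in other pattern b, in BdbZIP37 (35.02).

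BdbZIP93 (bradi4g43850) was mostly higher than its labelled control outside the metals and mostly lower within them. Its environmental values ran from -2.77 (NaCl 6 h against CK3, 1.46 against CK1) through a median of 1.26 to 1.80 (cold 1 h), mean 0.79 ± 1.42, and its hormone mean was 0.84 ± 0.56 (SD). Under metals it ran from -3.58 (Mn 6 h) through -2.10 to 0.27 (Cu 6 h), and it was at most 0.5-fold in 8 of 10 samples, mean -2.13 ± 1.26 (SD). Against the mean of the 3 controls the metal mean became 0.47. Relative to BdGAPD the gene stood at -2.24 in CK3, against -6.47 in CK1 and -5.80 in CK2. Its samples outside the metals lay between CK3 and CK1, at -5.99 to -4.67, so both directions depend on the control.

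BdbZIP47 (bradi2g55550), an ABI5 homologue, had a Ct of 35 or later in 24 of 34 samples. Its metal mean of 0.95 ± 2.00 (SD) had its highest values under Cd (3.81 and 3.33) and Pb (2.88 and 2.05), as did that of BdbZIP34, while Mn gave -0.43 and -1.66. Its Ct in CK3 was 37.95, the latest of its 34 samples, and it was 37.30 and 36.58 under Cd and 37.88 and 36.52 under Pb. The Ct of BdGAPD was 23.24 and 22.04 under Cd and 22.89 and 20.70 under Pb, against 20.08 in CK3. BdbZIP72 (bradi3g57960) also had its highest metal values under Cd, 2.30 and 1.71, at a Ct of 24.07 and 23.46 against 23.21 in CK3. Its environmental mean was -1.13 ± 1.65 (SD), or -0.56 with NaCl 6 h against CK1. BdbZIP83 was at most 0.5-fold in 5 of 9 environmental samples, mean -1.02 ± 0.69, and BdbZIP35 in 4, mean -0.73 ± 0.65 (SD). The environmental and metal means of BdbZIP19, BdbZIP46 and BdbZIP65 lay between -0.90 and -0.15.

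Outside the metals the 4 G-box genes had environmental means of -0.52 to 0.28 and hormone means of 0.21 to 0.61. BdbZIP31 (bradi2g15940), whose rice homologue is annotated as inducible by salt stress, had its highest value after 1 h of NaCl, 2.50, and 0.00 after 6 h against CK1 (-1.35 against CK3). In the other environmental samples it ran from -0.25 to 0.55. Under SA it passed from 1.33 at 1 h to -1.03 at 6 h and under 6-BA from 1.27 to -0.88. Under metals, BdbZIP53 had a mean of -1.51 ± 1.12, BdbZIP89 of -1.29 ± 0.93, BdbZIP26 of -0.94 ± 1.16 and BdbZIP31 of -0.72 ± 1.13 (SD), and Pb 24 h was the lowest sample of the first 3.

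Of the pattern c genes, BdbZIP68 (bradi3g41820) was at least 2-fold higher in 6 of 9 environmental samples and 5 of 8 hormone samples, with means of 0.71 ± 2.22 and 1.04 ± 1.03 (SD). Its environmental values ran from -3.81 (NaCl 6 h against CK3, 2.50 against CK1) through 1.71 to 2.76 (NaCl 1 h), with heat, at -1.34 and -0.93, the only other values below 0. Under metals it was at most 0.5-fold in 8 of 10 samples, mean -1.69 ± 1.09 (SD). Its Ct in CK1 was 34.56 against 31.42 in CK2 and 30.43 in CK3.

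BdbZIP95 (bradi5g14500), also of pattern c, was lower under both environmental factors and metals. It was at most 0.5-fold in 8 of 9 environmental samples, from -3.19 (NaCl 6 h against CK3, -1.36 against CK1) through -1.54 to -0.37 (NaCl 1 h). The same held in 7 of 10 metal samples, from -3.57 (Mn 24 h) through -1.45 to 0.12 (Cd 6 h). The means were -1.60 ± 0.73 and -1.60 ± 1.10 (SD). BdbZIP94, measured with the same primers, had -2.06 ± 1.33 under environmental factors and -0.56 ± 1.08 under metals, and the log2 changes of the pair differed by a median of 0.65. Among the pattern d genes, BdbZIP70 and BdbZIP77 were at most 0.5-fold in 7 and 6 metal samples, with means of -1.45 ± 1.10 and -1.20 ± 0.91 (SD). BdbZIP90 differed by reaching 2.26 and 3.20 under Cd, and 1.06, 1.44, 1.01 and 1.40 after 1 h of SA, 6-BA, ABA and MeJA. Its Ct was 25.16 and 23.02 under Cd against 24.26 in CK3, while that of BdGAPD was 23.24 and 22.04 against 20.08.

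Among the other pattern b genes, BdbZIP50 (bradi2g56080) had the highest mean of the 33 genes under environmental factors and under hormones. Its environmental values ran from -4.94 (NaCl 6 h against CK3, 2.38 against CK1) through 3.19 to 3.92 (heat 1 h), mean 2.14 ± 2.76, and its hormone values from 1.05 (MeJA 6 h) through 2.19 to 4.25 (ABA 6 h), mean 2.36 ± 1.17 (SD). All 17 values except NaCl 6 h were at least 2-fold. BdbZIP51, with the same primers, had means of 0.08 ± 1.55 and 0.68 ± 1.38 in these classes, and was at least 2-fold higher in 3 of 9 and 3 of 8 samples.

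The control wells of this pair were apart. The Ct of BdbZIP50 was 36.16 in CK1, its latest of all samples, 32.43 in CK2 and 31.02 in CK3, and that of BdbZIP51 was 33.97, 31.04 and 33.72. Against the mean of the 3 controls, the environmental mean of BdbZIP50 was -0.0011 and its hormone mean 0.18. The median difference of the pair over the 27 samples was 2.27, and that of 7 more same-primer pairs in the family 0.20 to 1.05.

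BdbZIP6 (bradi1g17335) was also measured late in CK1, at a Ct of 35.55, against 32.63 in CK2 and 33.02 in CK3. Its hormone values ran from -1.26 (SA 6 h) through 1.98 to 3.84 (ABA 6 h), mean 1.56 ± 1.74, its environmental mean was 0.90 ± 1.79 and its metal mean 0.55 ± 1.49 (SD). MeJA and ABA are set against CK2, where its Ct was earlier, and 3 of these 4 samples gave 2.42 to 3.84. With the 3 controls averaged, its hormone mean was 0.11, its environmental mean -0.40 and its metal mean 3.44. BdbZIP37 had Ct values of 35 or later in 27 of 34 samples, and its values ran from -3.26 (Zn 6 h) to 4.14 (ABA 6 h).

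BdbZIP92 (bradi4g42120) had the lowest metal mean, -2.50 ± 1.88 (SD), and the metals were split in it too. Under Cu, Zn and Mn its 6 values ran from -4.13 to -2.96, whereas Cd gave 1.16 and 0.21 and Pb -1.17 and -3.27. Its Ct was 35 or later in 11 of 34 samples, and 34.96 to 38.11 under Cu, Zn and Mn. Under Cd it was similarly late, at 35.76 and 35.51 (35.98 and 35.92 under Zn), and under Pb it was 37.74 and 37.65. The Ct of BdGAPD was 23.24 and 22.04 under Cd, against 18.23 and 18.66 under Zn. With the controls averaged, the metal mean of BdbZIP92 was -0.78. BdbZIP23 (bradi1g63840) followed with -2.20 ± 1.21 (SD), from -4.22 (Pb 24 h) through -2.55 to 0.19 (Cu 6 h). It was also among the lowest under hormones, at -0.67 ± 0.41 (SD), with all 8 values below 0, but its Ct was 24.24 in CK3 against 28.30 in CK1, and against the mean of the controls its metal mean was 2.14. BdbZIP59 (bradi3g07030) had the lowest environmental mean, -1.68 ± 2.38 (SD). With NaCl 6 h against CK1 its mean was -0.95, and BdbZIP18 was lowest at -1.58. Values of BdbZIP59 ran from -6.53 (NaCl 6 h against CK3, 0.02 against CK1) through -1.18 to 0.53 (H2O2 1 h), and heat 6 h at -4.21 was its next lowest. BdbZIP20, whose homologue is annotated as binding the promoter of the seed protein Em, had environmental and hormone means of -0.38 and -0.11, and a metal mean of -1.28 ± 1.06 (SD).

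Heavy metals were then compared with the other treatments on a scale that needs neither control nor reference gene. The centred level is –CT of a gene minus the median –CT of the 96 genes in the sample, so a difference in it is relative to the whole family. The times of a treatment were averaged, and 5 metals were set against 9 other treatments by an exact two-sided permutation test with Benjamini-Hochberg adjustment over the 96 genes. Of the 33 genes, 4 were higher under metals (15.6% of all genes) and 15 were lower (47.9% of all genes), which is 57.6% of them against 63.5% of all genes.

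BdbZIP59 had the largest difference. Its centred level was -1.11 ± 0.74 under metals and -5.47 ± 1.00 under the others (SD over 5 and 9 treatments), a difference of 4.35 (exact permutation test, adjusted p = 0.0013). The 10 metal samples ran from -2.76 to 0.32 and the 17 others from -8.64 to -4.20. The controls were already apart in the same way, at -1.62 in CK3 against -5.19 in CK1 and -4.50 in CK2.

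The controls were also apart for BdbZIP72 and BdbZIP23, which were higher under metals by 3.75 and 2.47 (exact permutation test, adjusted p = 0.0013 for each). BdbZIP72 ran from 2.74 to 6.28 under metals and from -0.52 to 2.23 elsewhere, and the controls were at 3.21 (CK3), 1.00 (CK1) and 1.27 (CK2). BdbZIP23 ran from -0.15 to 1.94 under metals and from -2.66 to -0.34 elsewhere, with 2.18 in CK3 and -1.08 and -1.23 in CK1 and CK2. BdbZIP50 was higher by 2.05 (exact permutation test, adjusted p = 0.0096), with 6 of the 17 other samples inside the range of the metals.

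Among the lower genes, BdbZIP26 ran from 0.44 to 1.93 under metals and from 2.74 to 4.66 elsewhere, a difference of -2.59. BdbZIP45 ran from 0.36 to 1.59 and from 1.76 to 3.80, a difference of -1.91 (exact permutation test, adjusted p = 0.0013 for each). The same-primer genes BdbZIP48 and BdbZIP49 had differences of -2.83 and -3.13 (adjusted p = 0.0013 and 0.0024, exact permutation test), and CK3 minus the mean of CK1 and CK2 was -3.65 and -2.88. The other 11 lower genes were BdbZIP92 (-2.19), BdbZIP31 (-2.19), BdbZIP18 (-2.03), BdbZIP85 (-1.45), BdbZIP93 (-1.40), BdbZIP20 (-1.28), BdbZIP70 (-1.11), BdbZIP35 (-1.07), BdbZIP46 (-0.98), BdbZIP36 (-0.84) and BdbZIP95 (-0.71), with adjusted p from 0.0013 to 0.028 in the exact permutation test. By list, beside 47.9% lower and 15.6% higher of all genes, 6 of the 8 TGA-type genes were lower and 0 higher, 3 of the 8 ABA-related genes were lower and 1 higher, and 2 of the 8 other pattern b genes were lower and 3 higher. Of the 4 G-box genes 2 were lower, as were 1 of the 2 pattern c and 1 of the 3 pattern d genes, with 0 higher. The 14 genes not called had differences of -1.61 to 1.35.

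**Figure D4:**
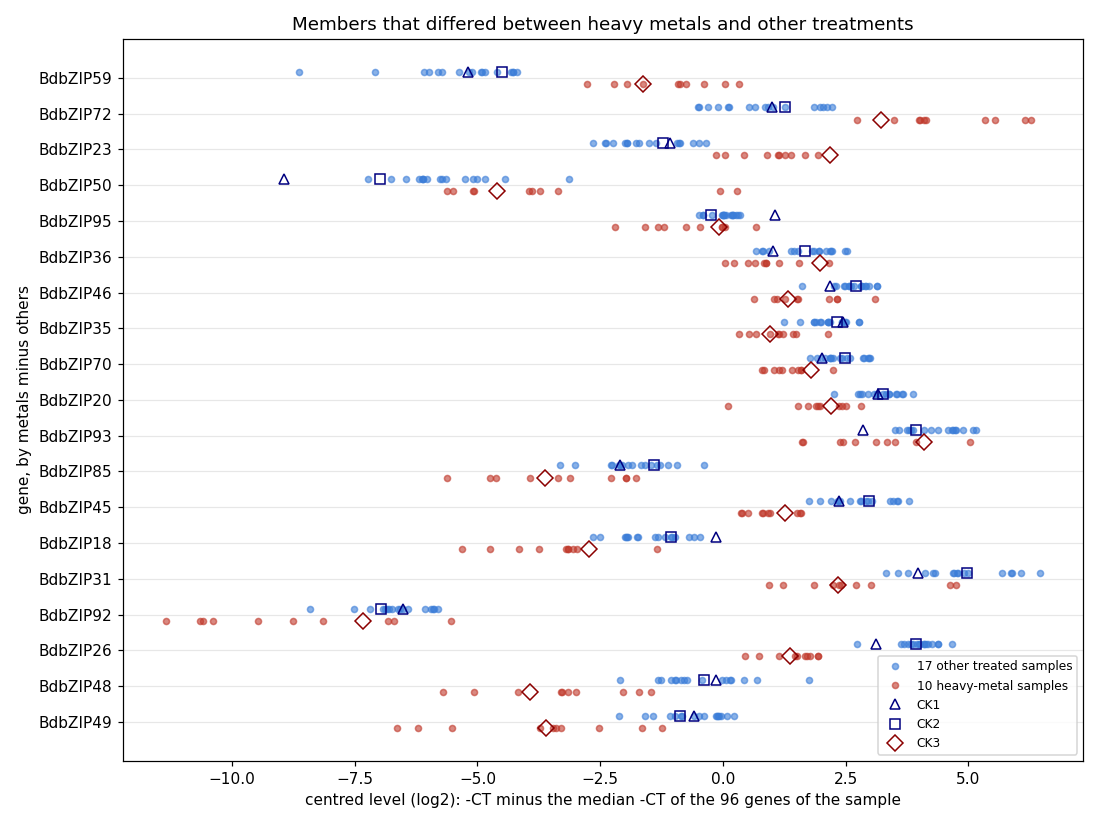
Centred level (x axis, log2) of the 19 genes that passed the test (y axis), in the 10 metal samples (red), the 17 other treated samples (blue) and the controls (open symbols). The genes shown were picked by their difference between metals and other treatments, so a gap between red and blue is no separate result. For most genes CK3 lies among the metal samples and CK1 and CK2 among the others.

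In 17 of the 19 genes, untreated CK3 minus the mean of CK1 and CK2 had the same sign as metals minus other treatments. No such count was made for the genes not called or for the rest of the family. Whether 17 of 19 is more than in the family is therefore not known. What sets CK3, the control of the metals by the labels, apart from CK1 and CK2 cannot be told apart from the class of treatment. Across the 33 genes, which are not independent replicates, the centred levels of the metal samples had a Pearson r of 0.916 to 0.981 with CK3 and 0.791 to 0.889 with CK1, and those of the 17 others 0.868 to 0.932 and 0.916 to 0.977. NaCl 6 h, labelled with CK3, had 0.910 with CK3 and 0.974 with CK1. When the centred level of the labelled control was subtracted, 8 of the 33 genes passed the same test (30.2% of all genes), of which 4 were among the 19. These 4 were BdbZIP72, higher by 1.72 (adjusted p = 0.014), and BdbZIP93, BdbZIP36 and BdbZIP70, with differences of -2.35 (adjusted p = 0.012), -1.59 (adjusted p = 0.028) and -0.79 (adjusted p = 0.032, exact permutation test). Against BdGAPD without a control, BdbZIP93, BdbZIP36 and BdbZIP70 were instead higher under metals, by 0.85, 1.42 and 1.15.

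Both times of 13 treatments were compared with each other by an exact two-sided sign-flip permutation test on –ΔCT, with adjustment over 96 genes. None of the 33 genes passed at an adjusted p of 0.05 (0% of all genes), and 4 of 33 and 16 of 96 had an unadjusted p below it. The median of the gene means, later minus earlier, was -0.22 for the 33 genes and -0.21 for all genes. A shift in BdGAPD enters –ΔCT of every gene alike, and its Ct was 20.86 at Cu 6 h and 18.32 at Cu 24 h. The lowest p was that of BdbZIP31, the G-box gene, with a mean of -1.13 ± 1.21 (SD, n = 13) and lower values at the later time in 11 of 13 treatments (exact permutation test, p = 0.0012, adjusted p = 0.086). Its later values fell by 3.76 under Cu, 2.50 under NaCl, 2.36 under SA and 2.15 under 6-BA, and those of cold and heat differed by 0.13 and 0.09. BdbZIP72 had a mean of -0.95 ± 1.01, BdbZIP90 of -0.71 ± 0.75 and BdbZIP95 of -0.40 ± 0.42 (SD, n = 13), with adjusted p of 0.086, 0.094 and 0.086 in the exact permutation test.

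In the organs, the medians of the 33 genes ran in the same order as those of the family, and single genes lay far from them. The median log2 change against CK1 was 1.26 in leaf, -0.02 in stem, -0.15 in spikelet and -1.08 in root (1.74, 0.19, -0.06 and -0.85 for all genes). Without BdGAPD the root median turned to 0.28 and the stem median to 1.03, and the leaf median was 0.05. In root 4 genes were at least 2-fold higher (18.8% of all genes) and 19 at most 0.5-fold (46.9% of all genes). Stem had 9 higher (30.2% of all genes) and 3 lower (9.38% of all genes), leaf 22 higher (71.9% of all genes) and 3 lower (9.38% of all genes), and spikelet 8 higher (26% of all genes) and 10 lower (28.1% of all genes). Leaf was the highest organ for 28 of the 33 genes and 83 of all 96, but the Ct of BdGAPD was 19.11 there against 16.54 in root, and on the centred level leaf was highest for 11 and lowest for 12 of the 33, and for 40 and 28 of the 96.

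**Figure D5:**
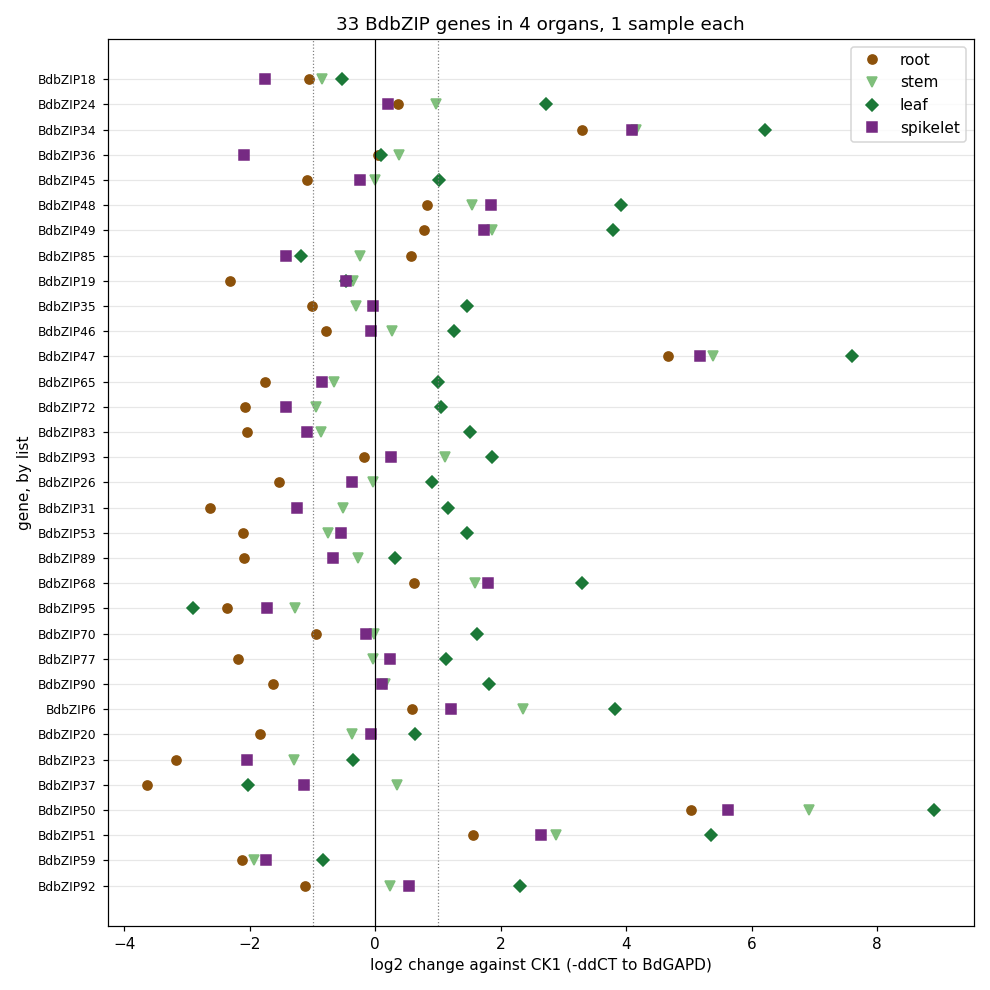
Log2 change against CK1 (x axis) of the 33 genes (y axis) in root, stem, leaf and spikelet, 1 sample each, with dotted lines at 2-fold. BdbZIP50, BdbZIP51, BdbZIP47 and BdbZIP34 lie beyond 2-fold to the right in all organs, while the 4 G-box genes lie left of 0 in root and spikelet.

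BdbZIP50 was the highest of the genes in every organ, at 8.91 in leaf, 6.91 in stem, 5.63 in spikelet and 5.04 in root, from its late well in CK1, and at 2.08 to 5.95 with the controls averaged. Its same-primer partner BdbZIP51 had 5.36, 2.88, 2.65 and 1.56 in that order. BdbZIP47 had 7.60, 5.39, 5.18 and 4.66, and BdbZIP34 had 6.22, 4.16, 4.09 and 3.29. Both were detected much earlier in the organs than in any seedling sample, BdbZIP47 at a Ct of 29.27 to 29.83 against 32.73 to 37.95, and BdbZIP34 at 26.45 to 27.01 against 30.21 to 36.58.

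On the centred level, BdbZIP34, BdbZIP47 and BdbZIP49 were higher in all 4 organs than in each of the 30 seedling samples (9.38% of all genes). BdbZIP23 and BdbZIP53 were lower in all 4 (4.17% of all genes). BdbZIP50 was in neither group, with a centred level of -3.46 to -1.97 in the organs and -8.94 to 0.28 in the seedlings. BdbZIP48 and BdbZIP49 had almost equal values, 3.91 and 3.79 in leaf, 1.54 and 1.86 in stem, 1.85 and 1.73 in spikelet and 0.82 and 0.78 in root. The lowest gene was BdbZIP37 in root (-3.64, at a Ct of 38.26), BdbZIP59 in stem (-1.94), BdbZIP95 in leaf (-2.90) and BdbZIP36 in spikelet (-2.10). BdbZIP94, with the primers of BdbZIP95, had -2.70 in leaf. The 3 genes at most 0.5-fold in leaf were BdbZIP95, BdbZIP37 (-2.03) and BdbZIP85 (-1.19), while 26 of the 33 were above 0 there, as were 83 of all 96.

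The 4 G-box genes were all at most 0.5-fold in root, from -2.63 (BdbZIP31) to -1.53 (BdbZIP26), and so were 5 of the 8 ABA-related genes, from -2.31 (BdbZIP19) to -1.01 (BdbZIP35), where 46.9% of all genes were. Of the TGA-type genes, 6 of 8 were above 0 in root, as were 30 of all 96 genes, but only BdbZIP34 passed 2-fold (18.8% of all genes). The rest of these 6 ran from 0.05 to 0.82, less than the SD of the wells. BdbZIP45 and BdbZIP18 were at -1.08 and -1.06. The study's list of organ values gives the same wells to other genes, for all 33 of them, whereas the wells joined here through its list of fold changes bring each same-primer pair together (median Ct difference of 0.28 to 0.64 in 7 pairs and 1.39 in BdbZIP50 and BdbZIP51, against 1.15 to 13.9 by the list of organ values).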

How the data were processed

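Ct values of 97 wells (96 BdbZIP genes and BdGAPD) in 35 samples were taken as the authors deposited them, 1 per well and sample, from SYBR Green qPCR with 40 cycles that the labels say was repeated 3 times. How the repeats were combined is not given in the sources used here, and a Ct carries no depth. The authors also deposited a ratio to BdGAPD and a ratio of each treated sample to its control. These hold the study's own comparisons and were used only to name wells and to check the columns. All 28 fold changes of a gene equalled those of 1 well, for 96 of 96 genes. Within 0.1 on the log2 scale, the deposited ratio of the 16 samples other than metals, NaCl 6 h and PEG 1 h followed 2 raised to the treated minus the control Ct in 90 to 94 of 96 wells, the direction opposite to –ΔΔCT and with no reference. That of the metals followed control minus treated Ct plus a constant in 96 of 96 wells.

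From the Ct values, –ΔCT (against BdGAPD), –ΔΔCT (against the labelled control) and the centred level were computed with Python 3.11.15, numpy 2.4.6 and pandas 2.3.3, and drawn with matplotlib 3.10.9. The unit of both tests is the treatment. Where nothing says that samples came from separate plants, p-values measure the spread between treatments only. The smallest p the 5 against 9 design allows is 0.0005. The tests were checked on simulated Ct values without controls, the test of time on the centred level rather than on –ΔCT. That check does not cover the link of CK3 with the metals or shifts in BdGAPD. The genes, their lists and the tests were chosen with earlier results of these data known. Values are given for genes that passed a test, the 3 highest and 3 lowest in each class, the highest and lowest in each organ and same-primer pairs, and by a range or mean for the others. The Cd and Pb splits and the genes compared at single samples were picked with their values in view. Other settings used another control, reference, join, set of treatments or set of genes. Sequences and coordinates were not used here.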

Additional observations from a re-analysis of the deposited data

Results flagged for a closer look

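On the centred level minus that of the labelled control, the response of 8 of the 33 genes differed between the 5 metals and the 9 other treatments (exact two-sided permutation test, Benjamini-Hochberg adjusted p under 0.05 over 96 genes, against 29 of all 96 genes). The difference, metals minus others, was 3.25 for BdbZIP34, 1.72 for BdbZIP72 and 1.09 for BdbZIP83, and it was -2.35 for BdbZIP93, -1.98 for BdbZIP68, -1.59 for BdbZIP36, -1.14 for BdbZIP53 and -0.79 for BdbZIP70. Each control is 1 sample and CK3 serves all metals, so an error in the Ct of a gene in CK3 enters all 5 metals.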

How the results depend on the processing

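Against the mean of the 3 controls, the median of the 33 genes turned from -0.90 to 1.02 under heavy metals and from 0.16 to -0.68 under phytohormones. Without the reference gene it turned to 0.73 under environmental factors, -0.67 under phytohormones, 0.28 in root and 1.03 in stem, and was 0.05 in leaf. Through the list of organ values the hormone median was 0.33. With the mean control, the environmental means of BdbZIP24 and BdbZIP50 became -0.22 and -0.0011, and the metal means of BdbZIP23 and BdbZIP93 became 2.14 and 0.47, while the environmental mean of BdbZIP59 and the hormone mean of BdbZIP23 went to -3.23 and -2.84. Under metals 19 of the 33 genes differed (61 of all 96), and 8 did with the control subtracted (29 of 96). Among the 20 genes whose Ct stayed below 35, a smaller set, 12 did (39 of 62 in the family). On –ΔΔCT 15 genes passed (40 of 96), 1 higher and 14 lower, of which 8 were among the 19. There the differences of BdbZIP59, BdbZIP48 and BdbZIP23 were 0.49, 0.03 and -1.29 and did not pass. On the centred level 18 to 22 passed when each treatment was left out (56 to 66 of 96). On –ΔCT without a control, 22 genes passed, all higher under metals, and 62 of all 96 passed. There BdbZIP20 (0.98), BdbZIP35 (1.19), BdbZIP36 (1.42), BdbZIP46 (1.28), BdbZIP70 (1.15), BdbZIP93 (0.85) and BdbZIP95 (1.55) turned direction. The cause of these turns was not tested. No gene passed the test of time in any setting, 0 to 0 when each treatment was left out. No paired analysis was possible because every condition has 1 sample, so replicate numbers pair nothing, and the times alone were paired, by treatment.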
